A study of Homo sapiens with 10 samples.

Results

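The genes described here encode the subunits of the hypoxia-inducible factors (HIF), the VHL ubiquitin ligase that marks them for destruction and the prolyl hydroxylases that make them visible to that ligase. The members were listed by name, at a time when earlier results of these data were known. They were EPAS1, HIF1A, ARNT, VHL, CUL2, ELOB, ELOC, RBX1, EGLN1 and EGLN2, 10 genes in all, and 8 of them were measured by a probe set annotated to that gene alone, among 22422 such genes on the arrays. RBX1, the RING subunit of the ligase, and EGLN2, a HIF prolyl hydroxylase, were covered only by probe sets annotated to several genes at once, XPNPEP3 with RBX1 and readthrough transcripts of MIA and RAB4B with EGLN2, and their levels were not analysed here. The cells were 786-O, a human renal carcinoma line grown in culture, infected with lentivirus carrying a short hairpin RNA and kept under puromycin at 2 ug/ml. In 1 set of 6 arrays, 2 carried a scrambled hairpin (Scr), 2 ZHX2 hairpin 44 and 2 ZHX2 hairpin 45. In a separate set of 4 arrays, 2 carried a control hairpin (Ctrl) and 2 a p65 hairpin, against RELA. The sample titles number the arrays within these groups and do not say whether the numbers are replicates or different hairpins. Every group is therefore 1 cell line under the same selection, and within each set the hairpins are the labelled difference between groups. The 2 sets were also deposited under different array platforms.

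In oxygenated cells the prolyl hydroxylases EGLN1, EGLN2 and EGLN3 modify the HIF alpha subunits, encoded by HIF1A and EPAS1 (HIF2 alpha). The VHL protein then binds the modified subunit and brings it to a ligase built from elongin B (ELOB), elongin C (ELOC), the scaffold cullin CUL2 and the RING protein RBX1. An alpha subunit that escapes pairs with the beta subunit ARNT and switches on hypoxia genes. Most clear-cell renal carcinomas have lost VHL function, 786-O cells among them, and 786-O cells are known for making HIF2 alpha and no HIF1 alpha protein. The arrays measured RNA only, so they bear on transcript levels and not on hydroxylation, degradation or protein.

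Sequences of 250 bases ending at an annotated transcript start are shown for the 3 genes that passed the test under ZHX2 knockdown and for EPAS1, the alpha subunit these cells use. They come from RefSeq on GRCh38.p14, and capitals mark the HIF-binding core, ACGTG or GCGTG on either strand. They lie at chr2:46297157-46297406 (plus strand) for EPAS1, chr14:61695263-61695512 (plus strand) for HIF1A, chr1:150876600-150876849 (minus strand) for ARNT and chr10:35090615-35090864 (minus strand) for CUL2.
EPAS1: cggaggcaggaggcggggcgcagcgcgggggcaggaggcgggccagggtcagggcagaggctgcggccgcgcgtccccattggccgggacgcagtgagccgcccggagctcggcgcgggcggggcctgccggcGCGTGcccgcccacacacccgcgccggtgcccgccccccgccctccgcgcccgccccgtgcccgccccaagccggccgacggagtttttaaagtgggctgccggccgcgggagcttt
HIF1A: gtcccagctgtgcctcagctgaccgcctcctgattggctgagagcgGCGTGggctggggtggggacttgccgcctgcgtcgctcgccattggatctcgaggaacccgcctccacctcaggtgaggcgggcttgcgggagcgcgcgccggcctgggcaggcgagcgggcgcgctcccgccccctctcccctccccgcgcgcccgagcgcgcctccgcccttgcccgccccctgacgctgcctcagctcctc
ARNT: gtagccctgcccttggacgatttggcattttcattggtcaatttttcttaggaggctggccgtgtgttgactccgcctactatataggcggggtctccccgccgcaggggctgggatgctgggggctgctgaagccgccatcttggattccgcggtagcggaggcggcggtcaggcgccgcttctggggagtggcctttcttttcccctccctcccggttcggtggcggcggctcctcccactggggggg
CUL2: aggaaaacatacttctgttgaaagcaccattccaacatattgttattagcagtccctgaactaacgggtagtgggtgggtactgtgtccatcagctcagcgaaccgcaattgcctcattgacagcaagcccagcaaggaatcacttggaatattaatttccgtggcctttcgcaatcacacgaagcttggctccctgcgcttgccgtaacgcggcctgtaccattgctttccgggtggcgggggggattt
The HIF core occurred 1 time in the EPAS1 window and 1 time in the HIF1A window, and these letters were in neither the ARNT nor the CUL2 window. Of 35116 RefSeq windows of the same length, 43.2% held at least 1 core. RefSeq windows of 8 of the 10 genes were searched, 12 windows in all because HIF1A, EGLN2 and CUL2 have several starts. VHL and ELOC were not among the genes searched, so shares of the 12 windows do not cover them. Of the 12 windows 6 (50%) held a core. The windows shown are the most upstream of those used for each gene, and the further windows of HIF1A, EGLN2 and CUL2 held none. The CUL2 gene is annotated up to position 35127006 on its minus strand, so the window shown is not at its outermost end. The RBX1 window held 4 copies, the most of the 12 windows, a number that 3.22% of all windows reached or passed. Its guanine and cytosine content was 76.8%, where the median window had 58%, and that share was not adjusted for content. The NF-kB consensus, the motif bound by p65 and its relatives, was found in 2 of the 12 windows, that of ARNT with 1 copy and that of ELOB with 2, against 9.96% of all windows. Guanine and cytosine made up 80.8% of the EPAS1 window, 75.6% of the HIF1A window, 64.4% of the ARNT window and 50.8% of the CUL2 window, where the median window had 58%.

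Array medians ran from 6.15 to 6.22 log2 units in the ZHX2 set and from 1.87 to 1.89 in the p65 set, so levels were never compared across sets. A log2 signal is the normalized brightness of a probe set on a scale where 1 unit is a doubling, and probe sets differ in brightness for the same RNA, so the levels of different genes were not compared either. ZHX2 read 10.58 and 10.43 with the scrambled hairpin, 9.35 and 9.38 under hairpin 44 and 8.93 and 9.02 with hairpin 45 (log2 change −1.14 and −1.53, limma adjusted p = 0.00528 and 0.000926). RELA read 7.64 and 7.67 with the control hairpin and 5.04 and 5.28 with the p65 hairpin, a log2 change of −2.50 (95% interval −2.95 to −2.05) that did not pass the adjusted test (limma adjusted p = 0.0732). Because probe sets differ in brightness for the same RNA, the markers do not settle the cell type from these values. The 786-O identity rests on the labels. Mean log2 signals in the ZHX2 set ran from 7.57 to 12.25 over 6 renal tumour markers and 3.76 to 5.68 over 4 leukocyte markers. They ran from 5.06 to 6.02 over 4 endothelial and from 3.26 to 6.94 over 4 fibroblast markers. In the p65 set the renal and fibroblast ranges overlapped, at 2.23 to 9.42 and 0.92 to 5.61. There KRT18 (2.23) and KRT8 (3.86) read below LUM (5.61) and COL1A1 (4.19). No leukocyte or endothelial marker had a mean above 1.79 in that set, though single arrays read up to 2.23 (CD14). Whether the replicates came from separate cultures is not stated, so each p measures no more than the spread between these arrays, which may be technical.

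With both ZHX2 hairpins set against the scrambled control, HIF1A and ARNT fell, CUL2 rose, and EPAS1 lay within 0.01 log2 units of the control. The calling rule, a limma p below 0.05 after Benjamini-Hochberg adjustment over all 22422 genes, was met by 18.3% of all genes here. Of the 8 measured genes 3 were called, 1 higher and 2 lower, where 11.9% of all genes were called higher and 6.4% lower. Their median log2 change was 0.08, against −0.004 for all genes. The arrays of both hairpins lay entirely above the scrambled arrays for CUL2, ELOB and ELOC and entirely below them for HIF1A and ARNT, 5 of 8 genes. The same held for 38.3% of all genes, 21.9% above and 16.4% below. Median centring called CUL2 and ELOB higher and 0 genes lower, and quantile normalization called HIF1A and ARNT lower and 0 higher. In bulk RNA, fewer cells with a transcript and less of it per cell cannot be told apart.

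EPAS1, the HIF2 alpha gene, gave log2 signals of 10.60 and 10.55 with the scrambled hairpin, 10.49 and 10.55 under hairpin 44 and 10.67 and 10.61 with hairpin 45. The scrambled arrays lay between the groups, with hairpin 45 highest and hairpin 44 lowest. The change over both hairpins was 0.01 (SE 0.0641, 95% interval −0.15 to 0.17, limma adjusted p = 0.943), and 96.8% of genes moved at least as far in either direction. The interval leaves room for a change of up to 0.15 log2 units below or 0.17 above the control, and quantile normalization put EPAS1 on the other side of it, at −0.09.

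HIF1A, the alpha subunit gene whose protein these cells lack, read 9.23 and 9.25 in the scrambled arrays, 8.95 and 9.03 under hairpin 44 and 8.95 and 8.89 with hairpin 45. All 4 knockdown arrays were lower than both controls. The change was −0.28 (SE 0.0652, 95% interval −0.44 to −0.12, limma adjusted p = 0.034), that is 0.822 of the control level. A shift at least this large occurred in 24.3% of genes. A second, dimmer HIF1A probe set read 6.52 and 6.12, then 5.96 and 6.09, then 6.05 and 6.31, and its groups overlapped. Averaging both probe sets gave −0.25 with limma adjusted p = 0.0987. The call also ended with median centring (adjusted p = 0.0613), with a replicate block and on omission of any of the 6 arrays. With 1 array left out the change ran from −0.30 to −0.26.

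ARNT, which encodes the shared beta subunit, read 10.51 and 10.43 in the scrambled arrays, 10.32 and 10.32 under hairpin 44 and 10.11 and 10.15 with hairpin 45. The groups did not overlap, and the lowest signals came from hairpin 45. Over both hairpins ARNT fell by 0.25 on the log2 scale (SE 0.0644, 95% interval −0.40 to −0.09), at the edge of the threshold with a limma adjusted p of 0.0496. That call ended with median centring (limma adjusted p = 0.113), with the mean of probe sets, with a replicate block and without any 1 array. The change stayed negative in all 12 alternative analyses, from −0.29 to −0.20 with 1 array left out.

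**Figure D1:**
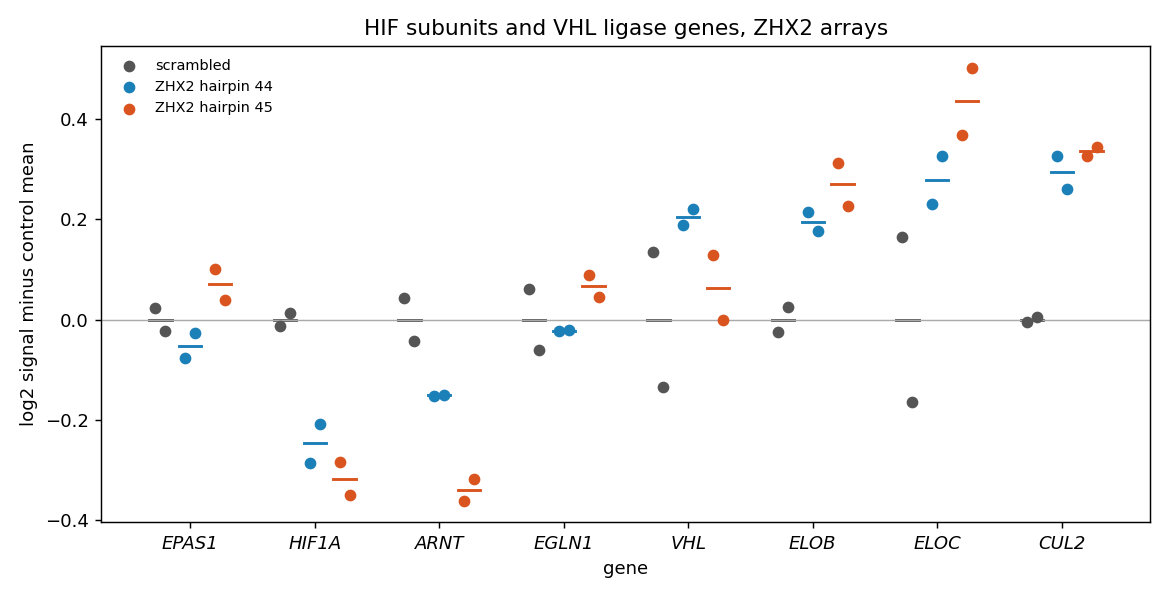
Log2 signal of each array minus the mean of the 2 scrambled arrays (vertical axis, log2 units) for the 8 measured genes (horizontal axis); points are arrays, short lines are group means of 2 arrays, and colours are the scrambled hairpin, ZHX2 hairpin 44 and ZHX2 hairpin 45. HIF1A and ARNT lie below their controls in all 4 knockdown arrays, CUL2, ELOB and ELOC above theirs, and for EPAS1, EGLN1 and VHL the 4 knockdown arrays are not all on 1 side of both controls.

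EGLN1, the main HIF prolyl hydroxylase, read 8.54 and 8.41 in the scrambled arrays, 8.45 and 8.46 under hairpin 44 and 8.56 and 8.52 with hairpin 45. The scrambled pair spanned most of the knockdown values. Its change was 0.02 (SE 0.0681, 95% interval −0.15 to 0.19, limma adjusted p = 0.859), and its sign turned with quantile normalization (−0.05).

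VHL, the substrate-binding subunit, read 8.04 and 7.77 in the scrambled arrays, 8.09 and 8.12 under hairpin 44 and 8.03 and 7.90 with hairpin 45. The 2 scrambled arrays lay 0.27 log2 units apart, and the hairpin 45 arrays fell between them. The change of 0.13 (SE 0.0962, 95% interval −0.10 to 0.37, limma adjusted p = 0.403) came with the second widest error of the 8 genes. It was 0.27 without the first scrambled array and −0.000345 without the second.

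The adaptor genes ELOB and ELOC had higher signals with both hairpins and did not pass. ELOB, elongin B, read 10.78 and 10.83, then 11.02 and 10.98 with hairpin 44 and 11.11 and 11.03 with hairpin 45. Its change was 0.23 (SE 0.0653, 95% interval 0.07 to 0.39, limma adjusted p = 0.0603). ELOC, elongin C, read 8.25 and 7.92, then 8.32 and 8.41, then 8.46 and 8.59, a change of 0.36 (SE 0.11, 95% interval 0.09 to 0.63, limma adjusted p = 0.0793). The unadjusted p was 0.0121 for ELOB and 0.0181 for ELOC, and 5 of the 8 genes had one under 0.05, where 32.2% of all genes did. An intensity-trended prior in limma called both (adjusted p = 0.00117 and 0.0121), with 5871 genes called in all, and quantile normalization moved ELOB to 0.12 (adjusted p = 0.274). ELOC was also called without the first scrambled array, at 0.52 (limma adjusted p = 0.0353), and lay at 0.19 (adjusted p = 0.27) without the second.

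CUL2, the scaffold that joins the adaptors to the RING subunit, rose in both knockdowns. Its log2 signals were 9.86 and 9.87 in the scrambled arrays, 10.20 and 10.13 under hairpin 44 and 10.20 and 10.21 with hairpin 45. The scrambled pair differed by less than 0.02 and every knockdown array was higher. The change was 0.31 (SE 0.0622, 95% interval 0.16 to 0.47, limma adjusted p = 0.0212), or 1.24 times the control, and 20.5% of genes moved as far. With quantile normalization it was 0.20 and no longer passed (adjusted p = 0.0811), and the call ended as well on omission of any array (adjusted p from 0.061 to 0.0759).

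Each hairpin was also set against the same 2 scrambled arrays, so the sides of that comparison share their controls. With hairpin 44, 0 of the 8 genes were called, where 7.65% of all genes were, and 3 had an unadjusted limma p under 0.05, where 24.5% of all genes did. With hairpin 45, 3 of 8 were called, where 20.1% of all genes were, 13% higher and 7.1% lower. HIF1A changed by −0.25 with hairpin 44 (limma adjusted p = 0.11) and by −0.32 with hairpin 45 (0.0345). ARNT changed by −0.15 (0.282) and by −0.34 (0.027). CUL2 changed by 0.29 (0.066) and by 0.34 (0.0253). When hairpin 45 was tested directly against hairpin 44, which gives the difference itself, 0 of the 8 genes passed in limma, where 0.397% of all genes did, and 1 had an unadjusted p under 0.05, where 15.1% of all genes did. That gene was ARNT, lower with hairpin 45 by a log2 difference of −0.19 (95% interval −0.37 to −0.01, limma adjusted p = 0.319). The interval for CUL2 ran from −0.13 to 0.22 and that for HIF1A from −0.25 to 0.11, so these arrays do not exclude differences within those bounds. The ZHX2 transcript itself differed between the hairpins by −0.39 (95% interval −0.60 to −0.18, limma adjusted p = 0.152).

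**Figure D2:**
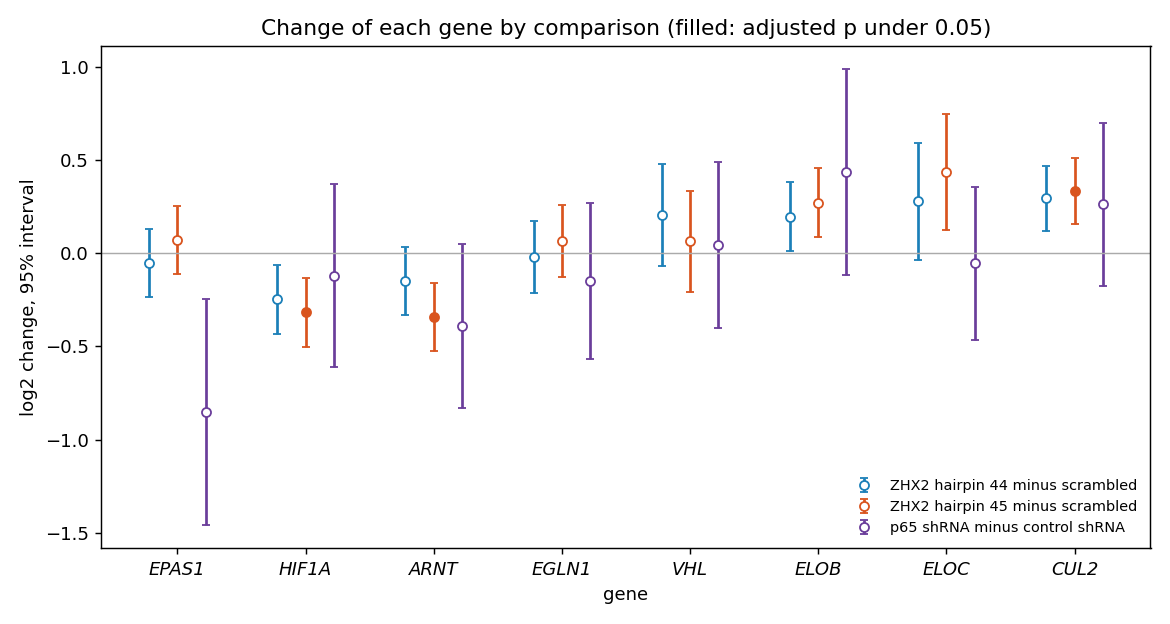
Log2 change with its 95% limma interval (vertical axis) of the 8 measured genes (horizontal axis) for hairpin 44 and hairpin 45 against the scrambled control and for the p65 hairpin against its own control; filled points have an adjusted p under 0.05. HIF1A, ARNT and CUL2 are filled with hairpin 45, and the p65 intervals are the widest, with EPAS1 at −0.85.

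In the p65 set, EPAS1 had the largest difference of the 8 genes and none was called. No gene of the 22422 passed (0% called, limma), 14.3% had an unadjusted p under 0.05, and a limma prior with an intensity trend called 3.87% of all genes, 1.37% higher and 2.5% lower. Of the 8 genes 0 were called, 1 had an unadjusted p under 0.05 and 1 was called with the trend, in each case EPAS1. The p65 arrays lay entirely above the controls for CUL2 and ELOB and entirely below them for EPAS1, ARNT, ELOC and EGLN1, 6 of 8 genes, and 46% of all genes likewise did not overlap, 23.3% above and 22.7% below. The median change of the 8 genes was −0.09, against 0.01 for all genes. There were 2 residual degrees of freedom, and even RELA did not pass without the trend, with which its limma adjusted p was 0.00132.

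EPAS1 read 8.23 and 8.71 with the control hairpin and 7.45 and 7.79 with the p65 hairpin. The controls were 0.48 log2 units apart, and the higher p65 array still lay below the lower control. The change was −0.85 (SE 0.241, 95% interval −1.46 to −0.25, unadjusted p = 0.0147, limma adjusted p = 0.227), that is 0.554 of the control level, and 5.06% of genes moved as far. With the trend EPAS1 passed at a limma adjusted p of 0.0445. When 1 array at a time was left out the change ran from −1.09 to −0.62, and the adjusted p from 0.277 to 0.56.

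ARNT read 7.56 and 7.70 with the control hairpin and 7.16 and 7.32 with the p65 hairpin, a change of −0.39 (95% interval −0.83 to 0.05, limma adjusted p = 0.399). Both p65 arrays were below both controls. HIF1A read 6.72 and 6.89 against 6.53 and 6.84, and its groups overlapped (log2 change −0.12, 95% interval −0.61 to 0.37, limma adjusted p = 0.826). The second HIF1A probe set went the other way, at 1.67 and 1.85 against 2.34 and 2.25, signals around the array medians, and the mean of both probe sets was 0.21.

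In the ligase, VHL read 4.48 and 4.69 with the control hairpin and 4.59 and 4.67 with the p65 hairpin, and its groups overlapped (log2 change 0.04, 95% interval −0.40 to 0.49, limma adjusted p = 0.94). CUL2 read 7.37 and 7.19 against 7.51 and 7.57, with both p65 arrays higher (0.26, 95% interval −0.17 to 0.70, limma adjusted p = 0.557). ELOB, with the widest control spread of the ligase genes, read 7.76 and 8.19 against 8.52 and 8.30 (0.44, 95% interval −0.12 to 0.99, limma adjusted p = 0.446). ELOC read 5.92 and 5.93 against 5.85 and 5.89 (−0.05, 95% interval −0.46 to 0.36, limma adjusted p = 0.917). EGLN1, the hydroxylase, read 6.65 and 6.55 against 6.43 and 6.48 (−0.15, 95% interval −0.57 to 0.27, limma adjusted p = 0.745). For each of these genes the interval takes in a change of 0.3 log2 units in at least 1 direction. A change of the size seen for CUL2 under ZHX2 knockdown is therefore not excluded in that direction.

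**Figure D3:**
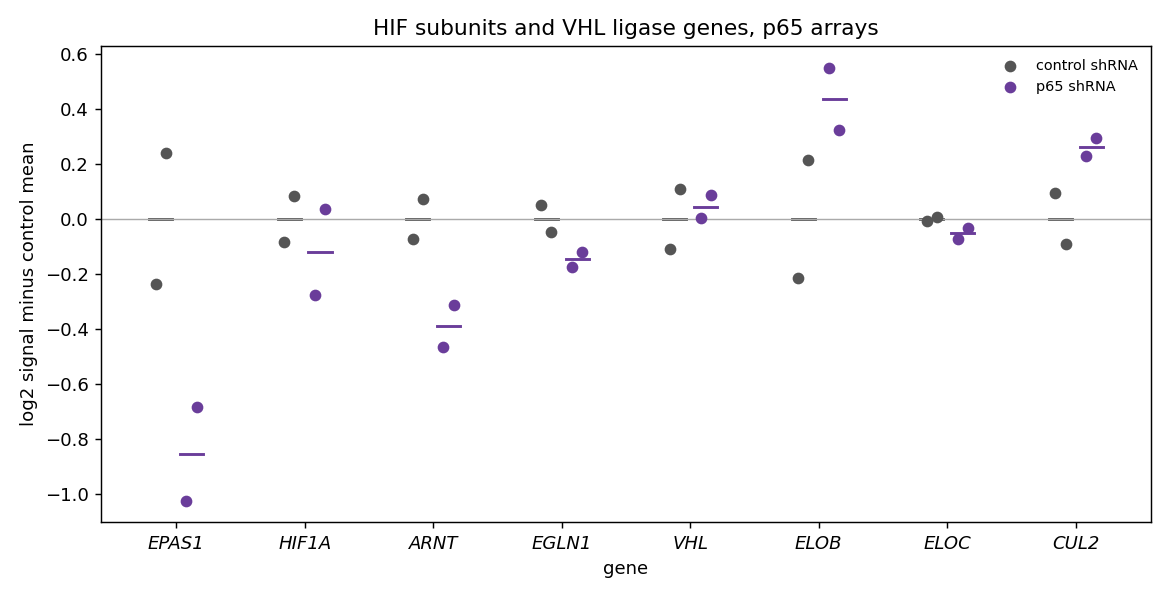
Log2 signal of each array minus the mean of the 2 control-hairpin arrays (vertical axis, log2 units) for the 8 measured genes (horizontal axis) in the p65 set; points are arrays, short lines are group means of 2 arrays, and colours are the control and p65 hairpins. EPAS1 lies lowest in both p65 arrays, and its control arrays are 0.48 log2 units apart.

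The targeted genes were also read in the other set. RELA rose with the ZHX2 hairpins, from 9.34 and 9.23 in the scrambled arrays to 9.64 and 9.68 with hairpin 44 and 9.82 and 9.75 with hairpin 45 (log2 change 0.44, limma adjusted p = 0.0112, and 0.0554 without the second scrambled array). ZHX2 read 7.75 and 7.82 with the control hairpin and 7.60 and 7.79 with the p65 hairpin (−0.09, limma adjusted p = 0.861).

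Around these 8 genes, 6 lists of pathway genes were read in the same fits. Among 16 other HIF subunits, hydroxylases and regulators, 2 were called higher and 1 lower under ZHX2 knockdown, 18.8% against 18.3% of all genes (median change 0.07, and −0.02 with quantile normalization). WSB1, the substrate receptor of another elongin ligase that is reported to act on VHL, read 11.47 and 11.41 in the scrambled arrays, 10.77 and 10.80 under hairpin 44 and 10.49 and 10.42 with hairpin 45. Its change of −0.82 (SE 0.0645, limma adjusted p = 0.00211) held in all 6 analyses that left out an array and all 6 other alternatives. SIAH2, a ligase for prolyl hydroxylases, rose by 0.31 (adjusted p = 0.0257) and SART1, a HIF-associated factor, by 0.29 (adjusted p = 0.0278), and both calls ended without any 1 array (limma adjusted p from 0.0553 to 0.1 for SIAH2 and from 0.0665 to 0.0944 for SART1). The remaining HIF hydroxylases and subunits did not pass. EGLN3 changed by 0.07 (limma adjusted p = 0.529), the asparaginyl hydroxylase HIF1AN by 0.07 (0.486), HIF3A by −0.14 (0.599) and ARNT2 by 0.14 (0.305).

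The neddylation cycle attaches NEDD8 to cullins, which activates them, and the COP9 signalosome removes it. Of its 21 listed genes 17 were measured and 8 were called higher and 0 lower under ZHX2 knockdown, where 11.9% of all genes were higher and 6.4% lower, with a median change of 0.22 (0.26 with median centring, 0.11 with quantile normalization). The 3 with the smallest p were the signalosome subunits COPS3 and COPS8 and the NEDD8 ligase cofactor DCUN1D5. COPS3 read 8.83 and 8.78 in the scrambled arrays, 9.22 and 9.18 under hairpin 44 and 9.54 and 9.46 with hairpin 45 (log2 change 0.54, SE 0.0652, limma adjusted p = 0.00547). COPS8 rose by 0.46 (adjusted p = 0.00701) and DCUN1D5 by 0.54 (adjusted p = 0.00751). All 3 calls held without any 1 array and in the 6 other alternatives. The number called higher was 6 with quantile normalization, 5 with a replicate block, and 3 to 7 with 1 array left out, when 1833 to 3338 of the 22422 genes were called in all. COPS5, which holds the catalytic site of the signalosome, was singled out after its value was seen; its change was 0.10 (limma adjusted p = 0.624).

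Of 11 other cullins and RING partners, 1 was called (9.09%, against 18.3% of all genes). It was SKP1, the adaptor of CUL1 ligases, higher by 0.30 (limma adjusted p = 0.0436), a call that ended without any 1 array (adjusted p from 0.0687 to 0.135). RNF7, the RING partner of CUL5, changed by 0.29 (adjusted p = 0.0503), the CUL4 adaptor DDB1 by 0.22 (0.0578) and CUL7 by −0.39 (0.0968). A list of 8 genes held ubiquitin-activating and -conjugating enzymes and the ubiquitin ligase ARIH1. Of these 5 were measured, and UBE2D1, UBE2D2 and UBE2D3 were not. Of the 5, 0 were called in limma and 0 had an unadjusted p under 0.05, where 18.3% and 32.2% of all genes did. The changes were 0.13 for CDC34, 0.07 for UBA1 and 0.06 for UBE2G1.

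Of 32 other partners of elongins B and C, mostly substrate receptors that use the same adaptors as VHL, 31 were measured, 7 were called higher and 3 lower, against 11.9% and 6.4% of all genes. With 1 array left out, when fewer genes were called in all, 3 to 5 were higher and 1 lower. FEM1A rose by 0.63 (limma adjusted p = 0.00501) and ASB13 by 0.50 (adjusted p = 0.0081). KLHDC2 fell by 0.67 on the log2 scale (adjusted p = 0.00691), and all 3 calls held without any 1 array. FEM1C, a paralog of FEM1A, changed by 0.05 (adjusted p = 0.739), and SPSB3 fell by 0.38 on the log2 scale (adjusted p = 0.0426), a call that ended without any 1 array (adjusted p from 0.0518 to 0.155).

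Of 35 genes known to respond to HIF, 31 were measured, 6 were called higher and 6 lower under ZHX2 knockdown, against 11.9% and 6.4% of all genes, and their median change was −0.03 (0.02 with median centring). With 1 array left out, 3 to 4 were called higher and 5 to 6 lower. ENPP3, an ectonucleotidase, read 8.94 and 8.64 in the scrambled arrays, 6.62 and 6.58 under hairpin 44 and 5.87 and 5.78 with hairpin 45 (log2 change −2.58, SE 0.0991, limma adjusted p = 0.000631). IGFBP3, an insulin-like growth factor binding protein, changed by −0.87 (adjusted p = 0.00186) and ANGPTL4, a lipase inhibitor, by 1.08 (adjusted p = 0.00279). All 3 calls held without any 1 array. VEGFA, the angiogenic growth factor, changed by −0.003 (95% interval −0.15 to 0.15, limma adjusted p = 0.982), and STC1, a secreted glycoprotein, by −0.07 (adjusted p = 0.651). Quantile normalization called 3 of the list higher and 8 lower, and over all genes it moved the share of calls that were higher from 65% to 53.2%, while median centring moved it to 73%.

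In the p65 set 0 genes of any list passed in limma, and unadjusted p under 0.05 was reached by 3 of the other HIF regulators, 1 of the other cullins, 2 neddylation genes, 1 conjugating enzyme and 6 elongin partners, where 14.3% of all genes reached it. Of the 31 HIF-responsive genes 23 had a negative change and 10 an unadjusted p under 0.05, and their median was −0.33. Of all 22422 genes 11032 had a negative change, 14.3% had an unadjusted p under 0.05 and the median was 0.01. The p65 arrays lay entirely below the controls for 15 of them and entirely above for 3, against the 22.7% and 23.3% of all genes given above. STC1 read 5.52 and 5.92 with the control hairpin and 4.40 and 4.42 with the p65 hairpin (log2 change −1.31, SE 0.203, limma adjusted p = 0.1). VEGFA read 6.84 and 7.09 against 6.004 and 5.80 (−1.06, SE 0.191, limma adjusted p = 0.119). With the intensity trend STC1 (adjusted p = 0.0145), VEGFA (0.0126) and EGFR, a growth factor receptor (0.0444), passed as lower and INSIG2, a regulator of sterol synthesis (0.0499), as higher. They were 4 of the 31 genes (12.9%), where 3.87% of all genes were called with the trend.

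Elsewhere in the pathway under p65 knockdown, EGLN3, itself induced by HIF in many cells, read 2.87 and 3.39 with the control hairpin and 2.38 and 2.13 with the p65 hairpin (log2 change −0.87, limma adjusted p = 0.217). ARNT2 read 2.39 and 2.79 against 3.44 and 3.27, a change of 0.77 (limma adjusted p = 0.217). Array medians in this set were 1.87 to 1.89, not far below these EGLN3 and ARNT2 signals. HIF1AN changed by −0.04 (limma adjusted p = 0.951) and HIF3A by −0.20 (0.843). CUL7 changed by −1.04 (limma adjusted p = 0.136) and passed with the trend (0.0317). COPS3 changed by −0.54 (limma adjusted p = 0.261) and COPS8 by −0.56 (0.266), and neither passed with the trend (0.071 and 0.127). UBE2G1, a conjugating enzyme, changed by −0.50 (limma adjusted p = 0.281, and 0.0432 with the trend). Among the elongin partners SPSB3 changed by 0.68 (limma adjusted p = 0.271) and FEM1C by 0.55 (0.248, and 0.0423 with the trend).

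**Figure D4:**
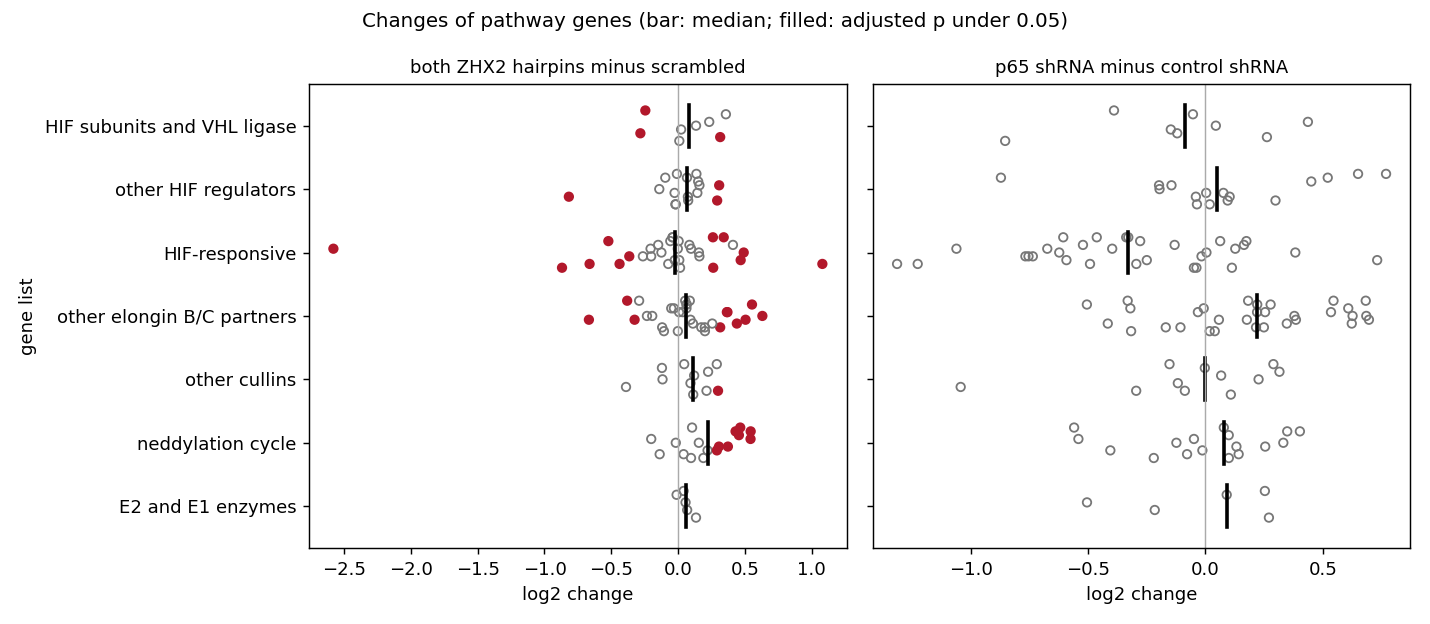
Log2 change (horizontal axis) of each measured gene of 7 lists (vertical axis), both ZHX2 hairpins minus the scrambled control on the left and the p65 hairpin minus its control on the right; each circle is a gene, filled where its limma adjusted p is under 0.05, and the bar is the median of the list. The neddylation genes have a median of 0.22 on the left and the HIF-responsive genes a median of −0.33 on the right, where no circle is filled. The list labelled E2 and E1 enzymes also holds the ubiquitin ligase ARIH1.

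Of 6 measured renal tumour markers 4 were called under ZHX2 knockdown, where 18.3% of all genes were. KRT18 rose by 0.62 (limma adjusted p = 0.0174), and CDH6 changed by −1.92 (0.000501), PAX8 by −0.38 (0.0117) and PAX2 by −0.36 (0.0341). The PAX2 call ended without any 1 array (adjusted p from 0.0505 to 0.123) and that of KRT18 without the second scrambled or the first hairpin 44 array (adjusted p up to 0.0913). The summed log2 signal of the 6 ran from 59.7 to 60.3 in the scrambled arrays, from 59.1 to 59.3 with hairpin 44 and from 57.2 to 57.5 with hairpin 45. With hairpin 45 CDH6 alone changed by −2.51, and KRT18, KRT8 and VIM by 0.68, 0.14 and 0.14. PAX8 and PAX2 were also lower with hairpin 45. PAX8 read 11.74 and 11.75 against 12.35 and 12.32 in the scrambled arrays, and PAX2 8.12 and 8.31 against 8.78 and 8.67. Of 4 fibroblast markers 1 was called, LUM, which fell by 0.95 on the log2 scale (adjusted p = 0.00317), while DCN changed by −0.15 (adjusted p = 0.166), COL1A1 by −0.34 (0.0743) and PDGFRB by 0.11 (0.707). The sum of the 4 ran from 23.1 to 23.2 in the scrambled arrays and from 21.44 to 22.01 over both hairpins. Of 4 leukocyte and 4 endothelial markers 0 passed in limma, with 1 and 0 at an unadjusted p under 0.05. Under p65 knockdown 0 markers of these lists had an unadjusted limma p under 0.05, where 14.3% of all genes did. The p65 changes ran from −0.70 to 0.52 over the renal and from −0.27 to 0.76 over the fibroblast markers. The part of these markers in the changes of HIF1A, ARNT and CUL2 was not tested.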

How the data were processed

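Total RNA of 10 samples was measured on Affymetrix arrays in 2 tables. RMA made the deposited signals, per the submitters' processing notes, and their range is that of log2 values. The program that ran RMA, with its version, was not given in the sources used here. The tables came from different array platforms and were analysed apart because each was normalized separately. Of the probe sets, 24459 were annotated to 1 gene, 1851 to several and 27196 to none, and each of 22422 genes took its brightest probe set. Groups and replicate numbers came from sample titles, and in the p65 set the numbers in the titles were taken as replicates. Linear models of group means were fitted with limma 3.58.1 in R 4.3.3 to 6 and to 4 arrays, with empirical Bayes moderation, Benjamini-Hochberg adjustment over all genes and a threshold of 0.05; the fits have 3 and 2 residual degrees of freedom, a number of arrays that limits the precision. The scripts were tested on simulated data with planted log2 changes of 1 and 2 in either direction. Changes as small as those of HIF1A, ARNT and CUL2 were not simulated. The members and gene lists were chosen with earlier results of these data known. Named genes were the members, the targeted genes, 4 further HIF subunits and hydroxylases, and per list the 3 and 2 smallest p in the ZHX2 and p65 comparisons. EGFR and INSIG2 were added because they passed with the intensity trend, and COPS5 after its value was seen. Alternatives were median centring, quantile normalization, an intensity trend, omission of probe sets under the 40th percentile, the mean of probe sets, a replicate block, a fit of only the groups compared, and omission of each array. Motifs were searched on both strands of RefSeq windows; protein sequences were not used here.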

Additional observations from a re-analysis of the deposited data

Results flagged for a closer look

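EPAS1 lay on opposite sides of the scrambled control with the 2 ZHX2 hairpins, at a log2 change of −0.05 with hairpin 44 (limma adjusted p = 0.726) and 0.07 with hairpin 45 (0.571), neither of which passed. The difference between the hairpins was 0.12 log2 units (95% interval −0.06 to 0.30) and did not pass when tested directly (limma adjusted p = 0.496). A difference at least that large was seen in 46.6% of genes.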

How the results depend on the processing

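HIF1A, ARNT and CUL2 kept their direction in all 12 alternatives for both ZHX2 hairpins, and the calls of HIF1A and ARNT held in 3 of the 12 and that of CUL2 in 5. The number of the 8 genes called for both hairpins, 3 as reported, was 5 with the intensity trend, 5 without dim probe sets, 1 with the mean of probe sets, 1 with the replicate block and 0 to 1 with 1 array left out. For hairpin 45 it was 5, 5, 1 with the block, 0 with only the groups compared and 0 to 1 with 1 array left out. For hairpin 44 it was 3 with the trend and 1 without dim probe sets, and for p65 it was 1 with the trend. Of all genes, hairpin 44 called 3940 with the trend, 3061 without dim probe sets, 820 with the block, 575 with only the groups compared and 3 to 595 with 1 array left out; the other hairpin comparison ranged from 1131 to 3972, and both hairpins from 1833 to 3338, with 1 array left out. Hairpin 45 against hairpin 44 called 1468, 404, 11, 3 and 0 to 4 in that order of settings, and p65 called 868 with the trend. Signs turned only for changes that did not pass. With quantile normalization EPAS1 was −0.092 for both hairpins and −0.058 for hairpin 45, EGLN1 −0.054 and −0.026, and the difference between hairpins was −0.014 for CUL2 and −0.0093 for ELOB. With the mean of probe sets HIF1A was 0.042 between hairpins and 0.21 under p65, and with median centring EGLN1 was 0.0092 for hairpin 44. With 1 array left out, the change for both hairpins ran from −0.015 to 0.032 for EPAS1, from −0.000345 to 0.27 for VHL and from −0.039 to 0.083 for EGLN1. It ran from −0.083 to 0.039 for EGLN1 with hairpin 44, from −0.071 to 0.20 for VHL with hairpin 45, and under p65 from −0.28 to 0.036 for HIF1A and from −0.065 to 0.15 for VHL. The cause was not tested. Samples with the same replicate number did not deviate together (correlations −0.03, 0.05 and 0.03 in the ZHX2 set and 0.01 in the p65 set), so the replicate block pairs arrays by number only. A group left with 1 array was assumed to vary like the others.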
